A study of Mus musculus with 2 samples.

Results

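The heat shock genes described here were 10 of the 22620 genes measured in 2 single-cell RNA sequencing libraries, 1 from mouse mammary tumours and 1 from lymph nodes of the same mice. They were the inducible HSP70 genes Hspa1a and Hspa1b, their J-domain partner Dnajb1, the HSP110 gene Hsph1, the constitutive HSP70 gene Hspa8, the HSP90 gene Hsp90aa1, the mitochondrial chaperonin genes Hspd1 and Hspe1, and the small heat shock genes Hspb1 and Cryab. Each was found by its symbol in both gene lists, and all 10 had UMIs in both libraries. The members were selected on their UMI counts across cell types and on the share of cells with high counts, both seen before in these same data. The levels and shares below are therefore a description, and with 1 library per tissue no test was run on any of them.

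Both libraries came from C57BL/6J mice carrying tumours of EO771-HEVM3, a derivative of the EO771 mouse mammary cancer line that had been passed through mice for rounds of selection. Cells from 6 mice were pooled in each library and no file assigns cells to mice, so each library counts as 1 sample and the spread between mice is unknown. Tumours were dissociated with collagenases I and III and hyaluronidase for 2 h at 37 °C, and lymph nodes with collagenase P, dispase and DNase for 1 h at 37 °C, so tissue, digestion and library cannot be told apart. The labels name no sort, and whether blood endothelial cells sorted in parallel in the study entered the lymph node library is not given in the sources used here.

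Heat shock proteins are chaperones, which bind unfolded proteins and help them to fold, to stay soluble or to be degraded. Under heat and other protein-damaging stress, the transcription factor HSF1 forms trimers, binds heat shock elements made of inverted GAA repeats and switches on the inducible members, while constitutive members such as Hspa8 are also made in unstressed cells. Tissue dissociation is also known to induce these genes, often together with immediate early genes such as Jun and Fos.

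The heat shock elements are shown first, because they are the binding sites of HSF1, and the gene positions with them, because 2 pairs of members could share reads. Hspa1a and Hspa1b are single-exon genes on the minus strand of chromosome 17 (GRCm38, chr17:34969190-34972156 and chr17:34956436-34959238), 9951 bases apart. The 250 bases before their start sites, from the RefSeq promoter table (GRCm38.p6, minus strand, chr17:34972157-34972406 and chr17:34959239-34959488), differ at 3 positions. Capitals mark the match to GAANNTTC, which starts 104 bases before the start site in each.
Hspa1a: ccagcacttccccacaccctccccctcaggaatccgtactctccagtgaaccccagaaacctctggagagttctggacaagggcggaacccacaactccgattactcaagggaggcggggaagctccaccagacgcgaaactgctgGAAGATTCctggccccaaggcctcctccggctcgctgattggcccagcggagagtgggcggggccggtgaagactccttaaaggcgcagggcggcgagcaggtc
Hspa1b: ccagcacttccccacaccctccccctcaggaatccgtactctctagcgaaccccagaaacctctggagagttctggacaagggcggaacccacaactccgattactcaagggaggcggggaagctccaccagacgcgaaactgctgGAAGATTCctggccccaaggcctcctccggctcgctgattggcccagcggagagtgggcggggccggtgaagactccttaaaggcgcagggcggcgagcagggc
The same table gave a promoter for 7 of the 10 members, and none for Cryab, Hspa8 and Hsp90aa1. GAANNTTC or TTCNNGAA, each its own reverse complement and so read on both strands at once, was present in 7 of the 10 promoters listed for those 7 genes, against 15.1% of all 32851 promoters of the same 300 bases (GAANNTTC in 7.86% and TTCNNGAA in 8.52%). The 7 promoters belong to 6 genes and are not independent, since those of Hspa1a and Hspa1b are near copies, Hsph1 has 2 overlapping ones, and Hspe1 and Hspd1 have 1 stretch in common. These letters were not in the Dnajb1 windows. Stretches of 30 bases around the sites of the other members show how the matches lie, with 2 separate matches at Hspb1 (chr5:135887801-135887830, plus strand), 1 at Hsph1 (chr5:149636351-149636380, minus strand), the one of its 3 matches that lies before the RefSeq start sites (the GENCODE model of the gene starts further upstream and covers it), and 3 overlapping matches in the stretch upstream of both Hspe1 and a start site of Hspd1 (chr1:55088053-55088082, shown on the plus strand, that of Hspe1).
Hspb1: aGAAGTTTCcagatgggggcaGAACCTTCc
Hsph1: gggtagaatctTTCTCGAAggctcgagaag
Hspe1: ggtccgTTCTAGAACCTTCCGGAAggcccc
Hspe1 and Hspd1 point away from each other on chromosome 1 (chr1:55088132-55091307, plus strand, and chr1:55077835-55088243, minus strand), and their gene models overlap over 112 bases at the 5′ ends. The other members lie at chr8:83608193-83612653 (Dnajb1, plus strand), chr5:149614287-149636376 (Hsph1, minus strand), chr5:135887919-135889563 (Hspb1, plus strand), chr9:50751325-50756636 (Cryab, plus strand), chr9:40800984-40810087 (Hspa8, plus strand) and chr12:110690605-110702728 (Hsp90aa1, minus strand), all protein-coding in GENCODE M21.
The Hspa1a and Hspa1b transcripts are near copies over most of their length. Of all windows of 50 bases in the Hspa1a transcript, 58.8% occur unchanged in that of Hspa1b, and 62.3% the other way round. In the last 500 bases, where 3′ libraries take most of their reads, that share is 0 in both. Their counts could still be split wrongly for reads further upstream, so values for either gene alone are less certain than their sum.

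The primary tumour matrix held 12427 cells with 173317475 UMIs, and the lymph node matrix 11617 cells with 122207852 UMIs. After limits on detected genes and mitochondrial UMIs and removal of doublets, 8756 (70.5%) and 9689 (83.4%) remained. These cells held 105929106 and 50304475 UMIs, so the larger part of the lymph node UMIs lay in cells left out. The 971 lymph node cells over the gene limit had 3.56 CPM of Hspa1a and 103 of Hspb1, against 89.3 and 48.9 in kept cells. Class levels below do not cover the cells left out. The libraries shared 47 cell barcodes as deposited and 31 among the kept cells, and these cells were kept. Clustering that left out every gene of the lists used here gave 38 clusters and subclusters, of which 7 stayed without a name (8.71% of kept tumour cells and 0.764% of kept lymph node cells). Class names below mean cells like that type by their markers. At least 20 cells were present in 21 combinations of class and library, and 7 classes had that number in both libraries. Median depth per class ran from 730 UMIs in tumour neutrophils to 35079.5 in lymph node cancer cells.

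A level is the sum of a gene's UMIs in all cells of 1 class in 1 library, per 1000000 UMIs of the same cells (CPM), and brackets hold exact 95% Poisson intervals. All intervals here cover counting error only, not the spread between mice or libraries, and UMIs of 1 cell are not independent draws. In data of this kind a higher level can come from more RNA of the gene in each cell or from more cells that have it, which is why shares of cells are given as well.

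Levels of a gene were put in order over the 21 class and library points, and neighbours were called apart when their intervals did not overlap. Of the 20 neighbouring pairs, 16 overlapped for Hspa1a and for Hspa1b, 18 for Hspd1 and all 20 for Hsph1, so most single steps in an order could not be told from counting error.

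The inducible HSP70 genes were near absent from the cancer cells and well detected in stromal cells of the same tumour library. HSP70 proteins hold unfolded chains and release them in cycles of ATP hydrolysis. Hspa1a was at 1.36 CPM [1.14, 1.61] in tumour cancer cells, where 78 of 6123 cells had any UMI of it. It was at 526 CPM [456, 604] in tumour endothelial cells, at 381 CPM [335, 433] in pericytes and at 377 CPM [317, 445] in fibroblasts. The intervals of pericytes and fibroblasts overlapped, and none of the 3 came near that of the cancer cells. Hspa1b was likewise at 3.42 CPM [3.07, 3.81] in cancer cells, and at 653, 581 and 391 CPM in fibroblasts, endothelial cells and pericytes.

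The cancer cells were also the deeper ones. When each cell was thinned to 1000 UMIs, 0.161% of tumour cancer cells (median 14070 UMIs before thinning) and 21.8% of tumour endothelial cells (median 6230) had an Hspa1a UMI. Without thinning the shares were 1.27% and 44.9%. The part of stray RNA from other cells in these shares was not measured. In the lymph node the thinned shares were 0.683% in cancer cells, 4.68% in T cells, 3.03% in B cells and 13.0% in dendritic cells.

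Among immune cells of the tumour, Hspa1a was at 275 CPM in dendritic cells, 208 in neutrophils, 154 in macrophages, 59.7 in T cells, 44.1 in NK cells and 39.5 in monocytes. Macrophages were not of one kind. In cluster 8.0, led by Ccl8, C1qa and Mrc1, the inducible members together (Hspa1a, Hspa1b and Dnajb1) were at 609 CPM [571, 649], against 99.3 CPM [82.0, 119] in cluster 12, led by Mmp12, Gpnmb and Pf4.

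In the lymph node the order was another one, with lymphoid and dendritic cells above endothelial and cancer cells. Hspa1a was at 444 CPM [407, 483] in dendritic cells and 323 CPM [282, 368] in NK cells. It was at 154 CPM [148, 162] in T cells and 146 CPM [139, 154] in B cells, whose intervals overlapped. Lymph node endothelial cells had 17.9 CPM [13.6, 23.2] and cancer cells 7.65 CPM [6.49, 8.95]. Plasma cells (68.2 CPM), plasmacytoid dendritic cells (53.7), monocytes (32.5) and neutrophils (30.7) lay between. The 22 high endothelial cells (HECs, the blood vessel cells through which lymphocytes enter lymph nodes) had 65.9 CPM of Hspa1a and 90.2 of Hspa1b. Of their UMIs of the inducible members, 63.4% lay in 1 cell, so this level says little about HECs as a class.

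**Figure D1:**
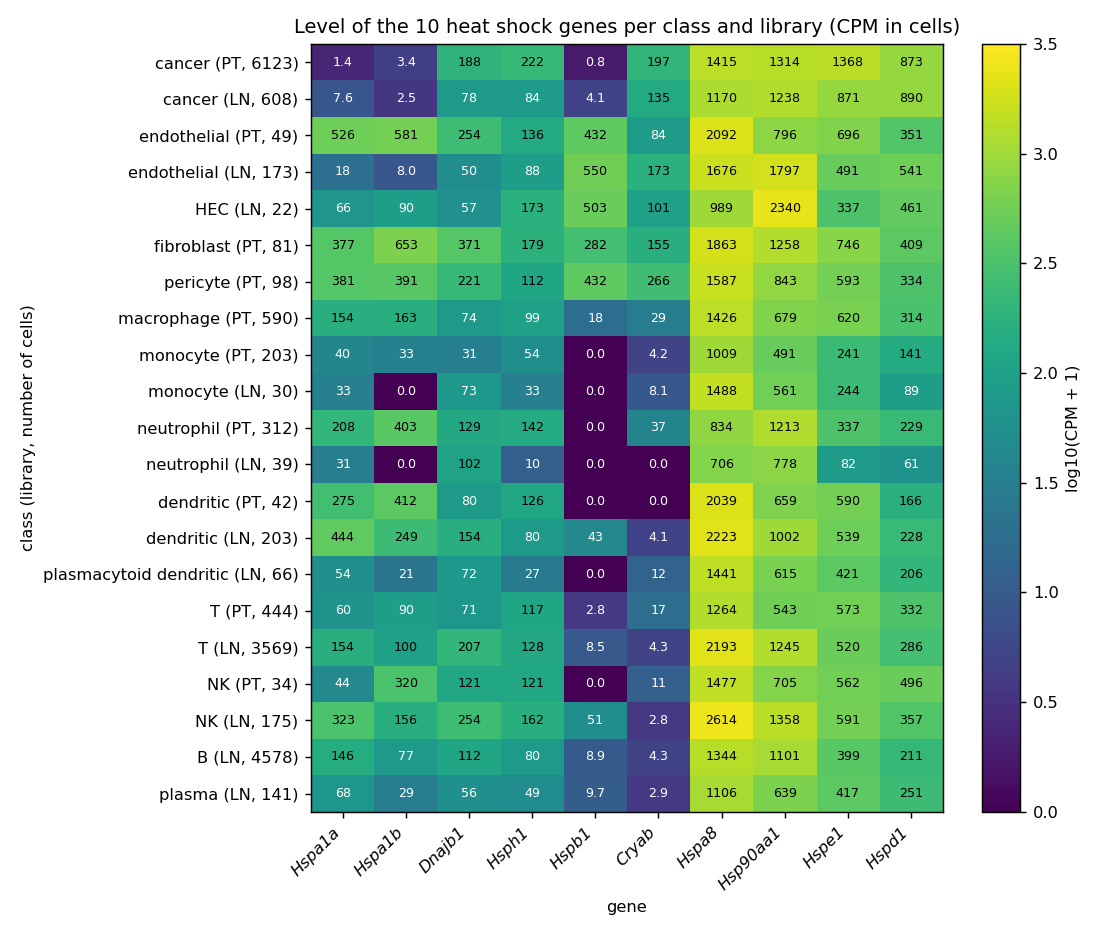
Level of each of the 10 heat shock genes (columns) in every class with at least 20 cells (rows, with PT for the primary tumour, LN for the lymph node and the number of cells). Each field prints the CPM, and its colour is log10(CPM + 1). Hspa1a runs from 1.36 CPM in tumour cancer cells to 526 in tumour endothelial cells, while Hspa8 runs from 706 to 2614.

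In most classes few cells carried the bulk of these transcripts. A cell was called high when at least 10 of 1000 UMIs drawn from it came from Hspa1a, Hspa1b and Dnajb1 together, and the share of high cells was computed over all possible draws. The share was 6.17% [1.21, 17.4] in tumour endothelial cells, 3.97% [0.337, 15.2] in tumour dendritic cells and 2.60% [0.237, 9.95] in tumour neutrophils, of which 247 of 312 had under 1000 UMIs and were left out. In tumour cancer cells it was 0.0343% [0.00440, 0.121]. In the lymph node it was 3.66% [1.41, 7.62] in NK cells, 3.55% [1.41, 7.27] in dendritic cells, 1.35% [0.997, 1.79] in T cells and 0.972% [0.707, 1.30] in B cells. It was 4.54% [0.115, 22.8] in the 22 HECs. Intervals are Clopper-Pearson binomial ones on an expected number of high cells, so they are approximate. By them, NK and dendritic cells of the lymph node could not be told apart from each other, nor could tumour endothelial, dendritic and neutrophil cells.

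Unthinned, a cell was high when at least 1% of its UMIs came from the 3 genes. That held for 40 of 3569 lymph node T cells (1.12%), 40 of 4578 B cells (0.874%), 6 of 175 NK cells and 7 of 203 dendritic cells. It also held for 1 of 22 HECs. In the tumour it held for 4 of 49 endothelial cells, 11 of 312 neutrophils, 5 of 590 macrophages, 3 of 444 T cells and 2 of 6123 cancer cells. It held for 0 of 608 lymph node cancer cells, which allows a share of up to 0.493% by a floor of 3 cells (0.605% as the upper Clopper-Pearson limit), and for 0 of 173 lymph node endothelial cells, which allows up to 1.73% (2.11%). In all, 142 kept cells were high, 97 of the lymph node and 45 of the tumour. The limit cut through a continuum, with 38 cells between 0.9% and 1.1%, the nearest under the limit at 0.996% and the lowest high cell at 1%. The highest cell of a named class was a lymph node T cell at 5.37%.

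**Figure D2:**
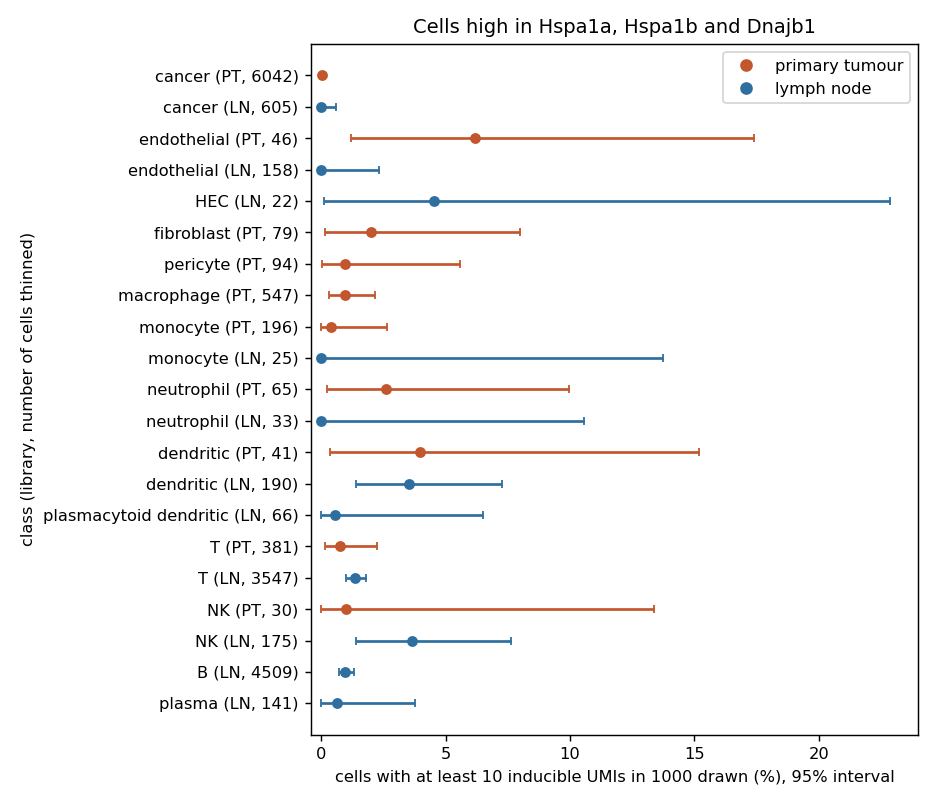
Percent of cells of each class in which Hspa1a, Hspa1b and Dnajb1 made up at least 10 of 1000 drawn UMIs, for both libraries. Bars are 95% Clopper-Pearson intervals on the expected number of high cells, which are approximate and cover counting error only. Tumour endothelial cells lie highest at 6.17%, and cancer cells of both libraries lie close to 0. The first rank depends on the limit. At 20 of 1000 UMIs the tumour endothelial share was 0.0111%, with an interval up to 7.73%, against 0.337% in lymph node T cells and 0.348% in B cells.

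The same concentration shows in how the UMIs were spread. The 10% of cells with most UMIs of the inducible members held 75.6% of them in lymph node T cells, 87.0% in B cells, 87.7% in dendritic cells and 80.4% in NK cells. In tumour neutrophils it was 95%, and in tumour cancer cells, where nearly all of these UMIs were Dnajb1, 47.4%. It was lower also in tumour endothelial cells at 54.8% and lowest in lymph node cancer cells at 43.2%. For the 4 basal chaperone members (Hspa8, Hsp90aa1, Hspe1 and Hspd1) the corresponding share was 28.8% in lymph node T cells and 33.4% in B cells. Cells with more UMIs in all hold more of every gene, and rare genes are more concentrated by counting alone, so the sets are not compared on equal terms.

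**Figure D3:**
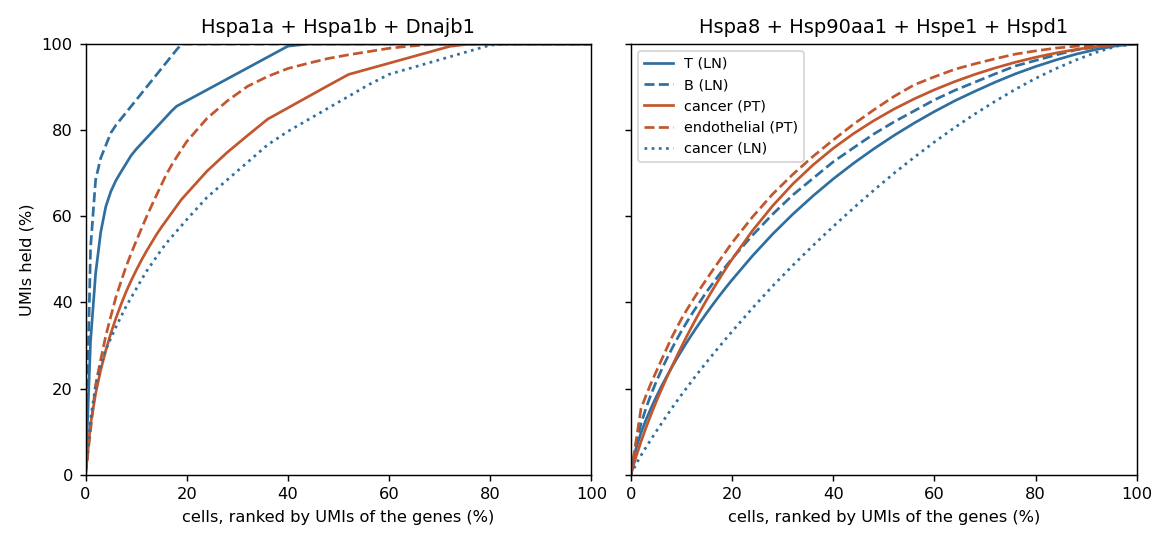
Cumulative share of UMIs, in percent, held by the cells of a class ordered from most to fewest UMIs of the set (x axis, percent of cells), for the inducible and the basal members. In lymph node B cells the first 10% of cells hold 87.0% of the inducible UMIs and 33.4% of the basal UMIs.

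Which of the twin HSP70 genes was counted differed between the libraries. Over all kept cells, Hspa1a made up 42.7% [41.2, 44.2] of the UMIs of the pair in the tumour and 63.4% [62.3, 64.5] in the lymph node. In T cells it made up 39.9% [32.3, 47.8] and 60.6% [58.9, 62.3], in dendritic cells 40% [31.2, 49.3] and 64.0% [60.7, 67.3], in NK cells 12.1% [3.40, 28.2] and 67.4% [62.1, 72.3], in endothelial cells 47.5% [42.7, 52.4] and 69.0% [58.0, 78.7], and in cancer cells 28.4% [24.3, 32.7] and 75% [68.5, 80.7]. These 5 classes thus had the higher share in the lymph node, with intervals that did not overlap within a class. Among classes with at least 20 cells in 1 library only, fibroblasts were at 36.6% [31.7, 41.6], pericytes at 49.4% [44.9, 53.9] and macrophages at 48.7% [45.3, 52.1] in the tumour, and B cells at 65.6% [63.5, 67.6] and plasma cells at 70.4% [62.9, 77.2] in the lymph node. HECs of the lymph node were at 42.2% [31.9, 53.1], where 1 cell held most of the UMIs, and tumour monocytes at 54.3% [36.6, 71.2] on 35 UMIs. Tumour neutrophils were at 34.1% [28.0, 40.5], while lymph node neutrophils and monocytes had 3 and 4 UMIs of Hspa1a and 0 of Hspa1b. Counted per cell, Hspa1a had more UMIs than Hspa1b in 40 of 129 tumour cells and in 166 of 209 lymph node cells that had at least 10 UMIs of the pair. Whether this follows the tissue, the library or the assignment of reads between the near copies was not tested.

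Dnajb1 encodes the J-domain protein that hands substrates to HSP70 and triggers its ATP cycle. Unlike its partners it was plentiful in cancer cells, at 188 CPM [186, 191] in the tumour and 77.6 CPM [73.9, 81.6] in the lymph node. Its highest level was in tumour fibroblasts at 371 CPM [312, 439]. Lymph node NK cells had 254 CPM [219, 295], lymph node T cells 207 CPM [199, 215] and tumour T cells 70.7 CPM [55.8, 88.3]. Within the tumour cancer cells Dnajb1 went from 63.6 CPM in cluster 1, led by Cyp1a1, and 87.2 in cluster 0, led by Cenpf and Wnt6, to 246 in cluster 3, led by Elf3 and Krt8, and 318 in cluster 4, led by Tff1.

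Hsph1 encodes an HSP110 protein, which swaps the nucleotide of HSP70 and helps to pull apart aggregates. Its level was highest in tumour cancer cells at 222 CPM [219, 225], and 83.8 CPM [79.9, 87.9] in those of the lymph node. Other classes ran from 10.2 CPM in lymph node neutrophils to 179 in tumour fibroblasts, and each of the 21 levels overlapped in interval with the next one in order. In cancer clusters of the tumour it was highest in cluster 2 at 344 CPM and lowest in cluster 3 at 166, an order unlike that of Dnajb1.

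Hspa8, the constitutive HSP70 that also uncoats clathrin vesicles, was present in every class within a narrower range. The lowest was 706 CPM [549.7, 894] in lymph node neutrophils and the highest 2614 CPM [2496, 2736] in lymph node NK cells, a class whose T cell markers summed to more (3434 CPM) than its NK markers (2471 CPM). Lymph node T cells had 2193 CPM and tumour T cells 1264. Cancer cells had 1415 CPM in the tumour and 1169.7 in the lymph node.

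Hsp90aa1 encodes the stress-responsive HSP90, which matures kinases and steroid receptors. Of the classes, HECs had the highest level at 2340.4 CPM [2217, 2469], followed by lymph node endothelial cells at 1797 CPM [1751, 1844]. Tumour endothelial cells had 796 CPM [709, 891]. The lymph node endothelial class was mixed, and its subcluster of 24 cells led by Pbld1 and Hspa5 lay above the HECs at 2613 CPM [2504, 2726]. Another subcluster of 36 cells, led by Lcn2 and Lars2, had 938 CPM [794, 1100]. Of the HEC UMIs, 8.30% lay in 1 of the 22 cells. Monocytes of the tumour had the lowest level at 491 CPM [430.1, 558]. Among lymph node B cells, cluster 14 (led by Fcmr, Bank1, Ighd and Irf4) stood out, with 1872 CPM [1815, 1929.8] against 814 CPM [789, 840.3] in cluster 13 and 917 CPM [875, 959.8] in cluster 15. Hspa8 did the same in these clusters, with 2323, 979 and 1066 CPM. The inducible members did not follow them, being at 561 and 498 CPM in clusters 14 and 15 and at 174 in cluster 13.

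Hspd1 and Hspe1 encode the HSP60 chaperonin barrel of mitochondria and its HSP10 lid, and are read from 1 shared promoter region in opposite directions. Both were highest in cancer cells. Hspe1 was at 1368 CPM [1361, 1376] in those of the tumour and 871 CPM [859, 884] in those of the lymph node, and Hspd1 at 873 CPM [867, 879] and 889.9 CPM [877, 903]. Tumour cluster 0, which was led by the mitosis gene Cenpf, had 2249.6 CPM of Hspe1 and 1413 of Hspd1, against 743 and 471 in cluster 3. Over the 21 class and library points the levels of the pair had a Pearson r of 0.829 on log2(CPM + 10), a description over points that share libraries and depth.
The balance of the pair differed between classes of the lymph node. Hspe1 made up 61.0% [60.8, 61.3] of the UMIs of the pair in tumour cancer cells and 49.5% in lymph node cancer cells. It made up 66.5% [61.6, 71.1] in tumour and 47.5% [45.8, 49.3] in lymph node endothelial cells, and 42.2% [37.6, 46.8] in HECs. Lymph node T cells at 64.5% [63.5, 65.4] and B cells at 65.4% [64.1, 66.6] were near tumour T cells at 63.3% [60.2, 66.3]. The intervals of the 2 libraries thus lay apart in cancer and endothelial cells and overlapped in T cells. Median depth was 35079.5 UMIs in lymph node cancer cells and 11026 in endothelial cells, against 2984 in T cells, and the part of depth in this was not tested.

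The small heat shock genes, whose proteins form oligomers that hold denatured proteins without ATP, were highest in vessel and stromal cells and, for Cryab, also in cancer cells. Hspb1 was at 550.4 CPM [525, 577] in lymph node endothelial cells, 503 CPM [447, 564] in HECs, 432 CPM [369, 503] in tumour endothelial cells, 432 CPM [382, 486] in pericytes and 282 CPM [230.4, 342] in fibroblasts. Elsewhere it was at most 51.2 CPM, in lymph node NK cells. Tumour cancer cells had 0.802 CPM [0.634, 1.00]. Lymph node cancer cells had 4.07 CPM [3.24, 5.04], of which 52 of 83 UMIs were in 1 cell. Thinned to 1000 UMIs, 38.5% of lymph node endothelial cells and 0.291% of lymph node cancer cells had a UMI of it.
Cryab, the αB-crystallin gene known from lens and muscle, was at 266 CPM [228, 309.7] in pericytes, 197 CPM [195, 200.1] in tumour cancer cells and 135 CPM [130.3, 140.4] in lymph node cancer cells. Lymph node endothelial cells had 173 CPM [159, 188], tumour endothelial cells 83.8 CPM [57.3, 118] and HECs 101 CPM [76.4, 130.1]. It differed among cancer clusters of the tumour, from 94.7 CPM in cluster 4 to 444 in cluster 1. Lymphocytes of the lymph node had 4.26 (T cells) and 4.27 CPM (B cells).

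The libraries were next compared within each of the 7 classes that both held, as the log2 ratio of lymph node over tumour CPM with 0.5 count added, for genes with at least 50 UMIs over both sums. A gene could pass this minimum on the UMIs of 1 library alone, as Hspb1 did in T cells and dendritic cells. A gene was counted as past the fold when the ratio was beyond 2-fold in either direction. With 1 library per tissue these counts describe the libraries, and the share of all genes past the fold is given beside each.

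In cancer cells, 2 of 10 members were past 2-fold higher in the lymph node, where 6.95% of all 11584 genes were, and 2 were past 2-fold lower, where 9.74% were. Dnajb1, at 188 CPM in the tumour and 77.6 in the lymph node, had a log2 ratio of -1.28 [-1.35, -1.20]. Hsph1 had -1.41 [-1.48, -1.34], from 222 and 83.8 CPM. The 2 higher members were low ones, Hspa1a with 2.49 [2.15, 2.84] (132 tumour and 156 lymph node UMIs) and Hspb1 with 2.34 [1.88, 2.81]. Without the cell with most UMIs of the gene in each library, Hspb1 was at 1.11 and Hspa1a at 2.48. The median over the members was -0.34 and over all genes -0.16.
Of the 608 lymph node cancer cells, 509 fell in cluster 21 (led by Tff2, Krt19 and Fam25c), which held 1 tumour cell. Only cluster 4 held at least 20 cancer cells of both libraries. Hspa1a, at 2.49 in the class, had 0 UMIs in the 58 lymph node cells of this cluster and 51 in its 1147 tumour cells, and Hspa1b 0 and 72, so the class ratio of Hspa1a did not hold there. In the class, 18 of 608 lymph node cancer cells had a UMI of Hspa1a. Hspb1 had 52 lymph node UMIs in the cluster, all in 1 cell. Dnajb1 was there at 318 CPM in 1147 tumour cells and 276 in 58 lymph node cells, a log2 ratio of -0.20 [-0.36, -0.051], and Hsph1 had -0.40 [-0.61, -0.20]. The ratios of Dnajb1 and Hsph1 were smaller in size within this cluster than in the class. The other 5 members lay between -0.54 for Hspe1 and 0.29 for Hspa8.

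In endothelial cells, 2 of 10 members were past 2-fold higher in the lymph node (all genes 20.7%) and 3 lower (all genes 21.9%). The higher count became 1 without the upper limit on detected genes and 1 with each library clustered on its own. Hspa1b was at 581 CPM in the tumour and 8.03 in the lymph node, a log2 ratio of -6.15 [-6.82, -5.59]. Hspa1a had -4.87 [-5.32, -4.45] and Dnajb1 -2.34 [-2.71, -1.96]. The higher ones were Hsp90aa1 with 1.17 [1.01, 1.35] and Cryab with 1.02 [0.53, 1.61], close to 2-fold, while Hspb1 had 0.35 [0.12, 0.59]. With 49 tumour cells, 1 cell could weigh on these ratios. Without the cell with most UMIs of the gene in each library, Dnajb1 was at -1.77, Hspa1a at -5.22, Hspa1b at -6.72 and Hsp90aa1 at 1.38, Hspd1 went from 0.62 to 1.22 and so past 2-fold, and Hspe1 from -0.51 to 0.044. The median over the members was -0.41, and over all genes -0.018.
These 2 endothelial classes were unlike in their markers. Of the 12 endothelial markers, 12 were at 50 CPM or more in the tumour cells and 6 in the lymph node cells, with a summed level of 7301 and 1483 CPM. Cdh5 was at 1110.0 and 158 CPM, and Cldn5 at 552 and 9.27. Nearly all lymph node cells of the class were in cluster 22, led by Glycam1, Fut7 and Hmga2, and the tumour cells in cluster 11. All 3 HEC markers (Glycam1, Chst4 and Fut7) were at 0 in the tumour cells and summed to 1606 CPM in the lymph node cells. Pericyte markers summed to 908 CPM in the tumour and 8.96 in the lymph node cells of the class, and fibroblast markers to 576 and 63.0, beside 381 and 377 CPM of Hspa1a in tumour pericytes and fibroblasts themselves. The part of these markers in the heat shock differences was not tested.

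**Figure D4:**
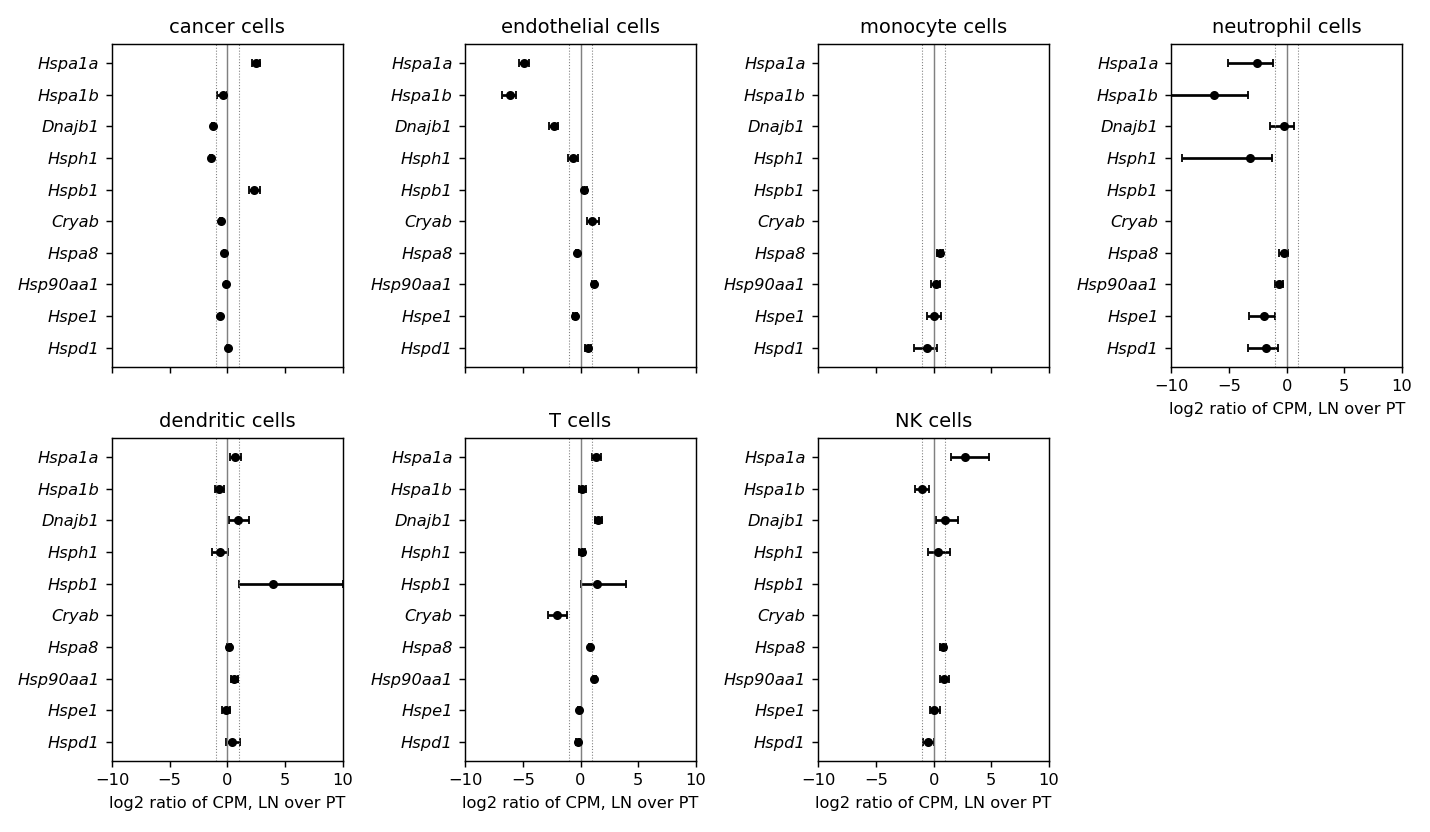
Log2 ratio of lymph node over primary tumour CPM of each member in the 7 classes held by both libraries, with exact 95% intervals that cover counting error only. Dotted lines mark 2-fold, members under 50 UMIs have no point, and bars that reach the axis edge are unbounded. Hspa1a and Hspa1b lie below 2-fold lower in endothelial cells, whereas Hspa1a lies above 2-fold higher in cancer, T and NK cells.

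In T cells, 4 of 10 members were past 2-fold higher in the lymph node, against 6.86% of all genes, and 1 lower, against 26.4%. The 4 were Dnajb1 with 1.54 [1.22, 1.89], Hspb1 with 1.42 [0.043, 3.93] on 3 tumour UMIs, Hspa1a with 1.36 [1.02, 1.75] and Hsp90aa1 with 1.19 [1.08, 1.32]. Cryab was the lower one with -2.06 [-2.81, -1.19]. Markers of cancer cells, which had 197 CPM of Cryab in the tumour, summed to 405 CPM in tumour T cells (2 of 13 at 50 CPM or more, 3 at 0) and 95.9 in lymph node T cells (0 of 13, 0 at 0), and their part in this was not tested. Hspa1b had 0.15 [-0.14, 0.47] and Hsph1 0.13 [-0.13, 0.40]. Without the cell with most UMIs of the gene in each library, Hspa1a was at 2.01 and Hspa1b at 0.81. The median over members was 0.47 and over all genes -0.43.
Different clusters held most T cells of each library, clusters 5.0 and 5.2 (led by Klrc2 and Prf1) in the tumour and clusters 17 and 18 (both led by Lef1) in the lymph node. Cluster 6, led by Tnfrsf4 and Izumo1r and with Foxp3 among its leading genes, held 520 lymph node and 56 tumour cells. There the inducible members together were at 261 CPM in the lymph node and 430.2 in the tumour, a log2 ratio of -0.73 [-1.12, -0.29]. Hspa1a had -1.17 [-1.87, -0.31] there and Hspa1b -1.96 [-2.64, -1.16], on 17 and 20 tumour UMIs, so Hspa1a was lower in the lymph node there and higher in T cells as a class. Hspa8 had 0.87 [0.65, 1.11] there, in the direction of the class.

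In NK cells, 2 of 8 tested members were past 2-fold higher (all genes 10.7%) and 1 lower (all genes 9.27%). Hspa1a had 2.71 [1.50, 4.76] on 4 tumour UMIs, Dnajb1 1.01 [0.20, 2.10] and Hspa1b -1.05 [-1.63, -0.39], which became 0.025 with a mitochondrial limit of 10%. Only 34 tumour NK cells stood behind these ratios. NK markers summed to 9686 CPM in tumour and 2471 in lymph node NK cells, and T cell markers to 749 CPM (4 of 12 at 50 CPM or more) and 3434 (10 of 12), so the lymph node class carried T cell genes as well, and their part in the ratios was not tested. Without the cell with most UMIs of the gene in each library, 4 members were past 2-fold higher and 0 lower, with Hspa1a at 3.29, Dnajb1 at 1.30, Hsph1 at 1.28 (from 0.36) and Hspa1b at -0.71. In dendritic cells, 1 of 9 members was past 2-fold higher (all genes 10.2%) and 0 lower (all genes 10.6%). That member was Hspb1, with 53 lymph node UMIs and 0 tumour UMIs, so it was at least 2.52-fold higher against a floor of 3 counts. Hspa1a had 0.68 [0.26, 1.15] and Hspa1b -0.73 [-1.10, -0.34], on opposite sides. Without the cell with most UMIs of the gene in each library, Hspa1a was at 1.31, Dnajb1 at 1.24 and Hspa1b at -0.012, and 3 members were past 2-fold higher. Without the high cells, 0 members were past 2-fold higher in dendritic cells and 1 was lower.

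In neutrophils, 0 of 8 members were past 2-fold higher (all genes 10.7%) and 5 were lower (all genes 26.7%), which became 2 without the high cells and 2 with doublets kept. All 5 met the minimum of 50 UMIs through their tumour sums alone, with at most 8 lymph node UMIs each. The class held 380103 UMIs in the tumour and 97667 in the lymph node. Hspa1b, with 153 tumour UMIs and 0 lymph node UMIs, was at least 13.1-fold lower against the floor of 3 counts. Hspa1a had -2.55 [-5.07, -1.16], Hspe1 -1.96 [-3.28, -1.02] and Hspd1 -1.79 [-3.38, -0.72], and Hsph1 had 1 lymph node UMI against 54 in the tumour, -3.22 [-9.12, -1.26]. The median over the 8 members was -1.87 with Hspa1b at its fitted value, against -0.33 over all genes. There were 39 lymph node neutrophils. Markers of cancer cells moved with the comparison, 6 of 13 being at 50 CPM or more in tumour neutrophils, with a sum of 2265 CPM, and 0 of 13 in those of the lymph node, with 113 CPM, 8 of them at 0. Hspa1a was at 208 CPM in tumour neutrophils and 1.36 in tumour cancer cells, Hspa1b at 403 and 3.42, Hspe1 at 337 and 1368, and Hspd1 at 229 and 873. The part of cancer cell RNA was not tested. In monocytes, 4 members passed the count minimum, of which 0 were past 2-fold higher (all genes 5.7%) and 0 lower (all genes 17.0%).

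Of the 4 members tested in all 7 classes (Hspa8, Hsp90aa1, Hspe1 and Hspd1), 0 were past 2-fold in 1 direction in all of them. Hspa1a, tested in all but monocytes, was past 2-fold higher in 3 classes and lower in 2. The other genes of the heat shock and stress pathways gave a background for this. Of 39 genes of the wider lists that were tested in every class, 1 was past 2-fold higher in the lymph node in all 7, the polyubiquitin gene Ubb, and 0 were lower in all. Its log2 ratio was 1.50 in cancer cells, 2.00 in endothelial cells, 2.30 in T cells, 2.50 in dendritic cells, 2.72 in NK cells, 2.72 in monocytes and 2.99 in neutrophils. Ubb was at 629 CPM in tumour and 3106 in lymph node T cells. The constitutive HSP90 gene Hsp90ab1 had 0.54 in cancer cells and 1.13 in T cells.
Immediate early genes, which respond within minutes to signals and to dissociation, were past 2-fold lower in the lymph node for 18 of 23 in endothelial cells (all genes 21.9%), 14 of 23 in neutrophils (26.7%) and 11 of 24 in cancer cells (9.74%). In T cells 7 of 25 were past 2-fold higher (all genes 6.86%) and 6 lower (26.4%), the latter near the share of all genes. In dendritic cells 6 of 22 were higher (10.2%) and 0 lower. Junb, for example, had -2.48 in endothelial cells and 1.23 in T cells, Jund -1.69 and -0.31, and Klf4 -1.95 and 0.61. These signs were those of Hspa1a in endothelial and T cells for Junb and Klf4, and their shared part was not tested.
Of the other cytosolic chaperones and cochaperones, 10 of 37 were past 2-fold higher and 6 lower in lymph node endothelial cells, near the 20.7% and 21.9% of all genes. In T cells it was 6 of 41 higher and 0 lower (all genes 6.86% and 26.4%), in dendritic cells 7 of 31 higher and 0 lower (10.2% and 10.6%), in NK cells 5 of 28 higher and 0 lower (10.7% and 9.27%), and in cancer cells 1 of 44 higher and 2 lower (6.95% and 9.74%).

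The 40 high T cells and 40 high B cells of the lymph node were then set against the other cells of their class and library. Members chose these cells, so their levels only describe the choice. The median high T cell had 21 UMIs of Hspa1a and 11 of Hspa1b, and the median high B cell 19.5 and 9.50. The 40 T cells held 47.8% of all Hspa1a UMIs of the T cells, and the 40 B cells 61.2% of those of the B cells. Among the other T cells 6.26% had an Hspa1a UMI.
Members that the choice did not use were higher as well. Hsph1 had a log2 ratio of 3.58 [3.31, 3.83] in T cells and 4.53 [4.23, 4.82] in B cells, Hspe1 2.43 [2.25, 2.61] and 2.82 [2.60, 3.02], Hspd1 2.36 [2.10, 2.60] and 2.82 [2.52, 3.10], Hsp90aa1 1.89 [1.75, 2.02] and 2.66 [2.53, 2.79], and Hspa8 1.04 [0.90, 1.18] and 1.84 [1.68, 1.99]. Hspb1 had 6.10 [5.47, 6.69] and 5.13 [4.26, 5.87], from UMIs in 7 of 40 and 6 of 40 high cells. Cryab had a UMI in 1 high T cell and in 0 of 40 high B cells. The constitutive Hspa8 thus had the smallest ratio of the members tested, at about the limit of 2-fold in T cells.

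Among all genes but the members, 18.2% were past 2-fold higher and 12.8% lower in high T cells, and 17.4% higher and 13.1% lower in high B cells. Against this, 18 of 24 immediate early genes were past 2-fold higher and 0 lower in T cells, and 18 of 23 higher and 0 lower in B cells, 15 of them in both. Of the other cytosolic chaperones and cochaperones, 13 of 41 were higher and 5 lower in T cells, and 15 of 39 higher and 0 lower in B cells, 10 of them higher in both. Of the endoplasmic reticulum genes, which answer to unfolded protein in another compartment, 2 of 16 were higher and 0 lower in T cells, and 2 of 16 higher and 1 lower in B cells. Mitochondrial chaperones other than the members were higher for 3 of 6 and 2 of 6 and lower for 0. Metallothionein and oxidative stress genes were higher for 0 of 5 in each class and lower for 0 in T and 1 in B cells. Many of these genes had few UMIs in 40 cells. The counting interval lay wholly above 2-fold higher for 13 immediate early genes in T and 14 in B cells, for 6 and 6 of the other cytosolic chaperones, and for 0 of the mitochondrial, endoplasmic reticulum and metallothionein lists in either.
With the members left out, the 5 genes with the largest ratio in T cells, among those with at least 50 UMIs in the high cells, were Jun with 4.26 [4.07, 4.45], Klf2 with 2.80 [2.65, 2.95], Ppp1r15a with 2.38 [2.13, 2.60], Klf6 with 2.34 [2.10, 2.56] and Btg2 with 2.26 [2.04, 2.47]. Jun and Klf6 are immediate early transcription factors, Klf2 is a factor of quiescent lymphocytes, Ppp1r15a encodes the phosphatase subunit that ends the integrated stress response, and Btg2 is an antiproliferative gene. In B cells the 5 were Jun with 3.73 [3.49, 3.96], Klf2 with 2.91 [2.72, 3.09], Fos with 2.63 [2.24, 2.97], the HSP40 gene Dnaja1 with 2.33 [2.10, 2.54] and Klf6 with 2.15 [1.76, 2.48], so Jun, Klf2 and Klf6 were in both sets. Jun was at 2759 CPM in high and 144 in other T cells. Smaller ratios were those of Hsp90ab1, with 0.89 in T and 1.36 in B cells, and of Ubb, with 0.66 and 0.74.
High cells were not deeper, nor richer in mitochondrial UMIs. Median depth was 2401 UMIs in high and 2991 in other T cells, and 1752 and 1797 in B cells. The median mitochondrial share was 1.67% and 1.99% in T cells, and 2.19% and 2.44% in B cells. High T cells were spread over clusters, 20 of 40 in cluster 18, 16 in cluster 17 and 2 each in clusters 6 and 16. High B cells fell as 17 in cluster 14, 13 in cluster 15 and 10 in cluster 13, which held 2582 of the 4578 cells.

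**Figure D5:**
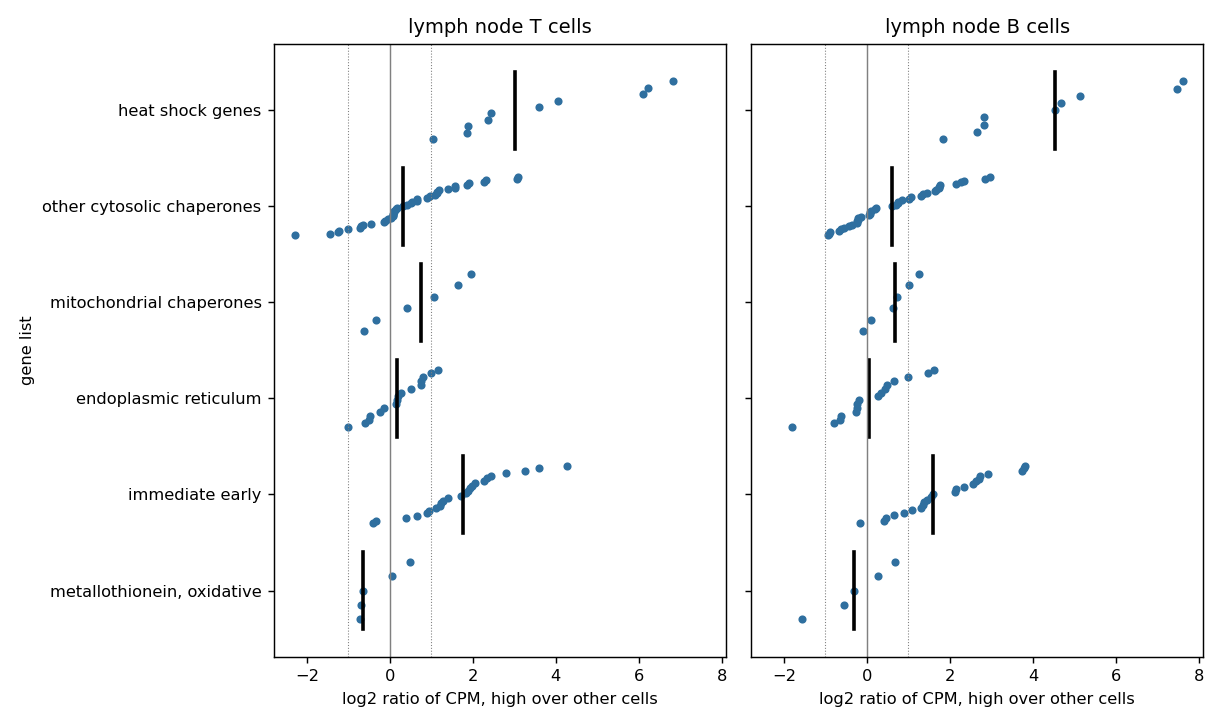
Log2 ratio of CPM in the 40 high over the other cells for the genes of each list, in lymph node T cells and B cells; each point is 1 gene, thick lines are the medians of the lists, and dotted lines mark 2-fold. The heat shock genes in the top row include those that chose the cells. Immediate early genes lie mostly above 2-fold higher (18 of 24 in T cells and 18 of 23 in B cells), and 2 of 16 endoplasmic reticulum genes do in each class.

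The pattern over classes was compared with that of all other genes. Among 11578 genes, those most like the summed inducible members over the 21 class and library points were Hs6st1 with a Pearson r of 0.759, Ssh1 with 0.758, Zbtb4 with 0.734, Irf1 with 0.730 and Cry2 with 0.702. Zfp36l1, Egr3, Myh9, Spsb1 and Fosb followed, down to 0.657, and Egr3 and Fosb are on the immediate early list. These correlations are on log2(CPM + 10), picked as the highest of all genes, and the points share libraries and depth. Among the members themselves, Hspa1a and Hspa1b had an r of 0.861, Hspa1a and Dnajb1 0.551, Hsph1 and Hspe1 0.756, Hspb1 and Cryab 0.625, and Hspa1a and Cryab -0.137. Across single cells, Hspa1a and Hspa1b had an r of 0.769 in lymph node T cells, 0.810 in B cells and 0.643 in lymph node cancer cells. In tumour cancer cells it was 0.216. There 7 cells had UMIs of both genes and 194 of either alone, against 108 and 121 among lymph node B cells. Hspe1 and Hspd1 had an r of 0.594 in tumour and 0.602 in lymph node cancer cells.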

How the data were processed

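The authors used Cell Ranger to make the deposited files, in which each value is the whole-number UMI count of 1 gene in 1 cell, not normalized. The version is 5.0.0 per the file headers and 2.1.1 in the submitters' processing notes, while the reporting summary of the study names a later one, with the mouse build GRCm38. The methods of the study give a filter on genes seen in few cells or at a low mean, and whether it made the deposited list of 22620 genes is not stated. Intronic reads and any doublet removal before deposit are not given in the sources used here. The members, the other gene lists, the markers and the rules were chosen with earlier results of these data known.

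Cells with 201 to 6000 detected genes and at most 5% mitochondrial UMIs were kept, which are limits the deposited counts did not yet obey. Doublets were called per library with Scrublet in scanpy 1.11.5 at an expected rate of 6%. Its automatic threshold removed 391 tumour cells (4.27%). In the lymph node that threshold marked under 0.5%, so the 616 cells (5.98%) whose scores lay beyond the 94th percentile were taken out instead. Each cell was scaled to 10000 counts, and 2000 variable genes per library, without any gene of the lists, gave 30 principal components after regression on cell cycle scores (gene lists from Seurat 5.3.0). Cells of both libraries were clustered together on 15 neighbours by the Leiden method (igraph 0.11.9, resolution 1, seed 1), without integration, and mixed clusters again at resolution 0.5. Clusters were named from at least 3 raised markers, and those led by genes of another class stayed unnamed. Rebuilt names can differ from those of the study. Classes under 20 cells in a library were left out of class levels.

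Levels are summed UMIs per 1000000 with exact Poisson intervals, and ratios have the exact interval of the split of 2 counts. Shares have Clopper-Pearson intervals, exact for counted numbers and approximate for thinned shares, which rest on expected numbers. All are at 95% and for counting error only. Ratios used 0.5 added counts and genes with at least 50 UMIs. For shares at equal depth, the chance that 1000 UMIs drawn without replacement hold at least 10 of the set was computed per cell from the hypergeometric distribution and averaged, and cells under 1000 UMIs were left out. The thinning formula was checked against random draws, and the ratio and its interval on simulated Poisson sums. Clustering, class names and doublet calls were not simulated. With 1 library per tissue there was no test, no p-value and no replicate error. Median depth is given in the text for some classes only. The width of an interval follows the UMIs or cells counted.

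The genes named were the 10 members, the 10 other genes most like the inducible members over classes (at least 100 UMIs in a class), the 5 with the largest ratio in high cells of each class (at least 50 UMIs there), the 3 with the highest level in each list and any list gene past 2-fold in every class, of which 1 is not reported here. Genes that lead a cluster were taken from its 10 leading genes. Gene models were those of GENCODE M21 and promoters those of RefSeq (GRCm38.p6). Protein sequences were not used here. Scripts ran in Python 3.11.15 with matplotlib 3.10.9, scikit-learn 1.9.0, anndata 0.12.19, pandas 2.3.3, scipy 1.17.1 and numpy 2.4.6. Alternatives covered the mitochondrial and gene limits, doublets, variable genes, clustering, the mean over cells, the most loaded cells, the limit for a high cell, its genes and the fold.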

Additional observations from a re-analysis of the deposited data

Results flagged for a closer look

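Some members differed in direction between classes under the same comparison of lymph node over tumour. With 1 library per tissue the difference was not tested. Hspa1a was past 2-fold higher in the lymph node in cancer cells as a class (log2 ratio 2.49), T cells (1.36) and NK cells (2.71), and past 2-fold lower in endothelial cells (-4.87) and neutrophils (-2.55). In cancer cluster 4, the only one with at least 20 cells of both libraries, Hspa1a had 0 lymph node UMIs and 51 tumour UMIs. Most T cells of the 2 libraries lay in different clusters, and in cluster 6, with 520 lymph node and 56 tumour cells, Hspa1a had -1.17 [-1.87, -0.31]. In NK cells, T cell markers summed to 749 CPM in the tumour and 3434 in the lymph node, and NK markers to 9686 and 2471, and their part in the ratios of NK cells was not tested. Dnajb1 was higher in T cells (1.54) and NK cells (1.01) and lower in cancer cells (-1.28) and endothelial cells (-2.34). Within cancer cluster 4 it had -0.20 [-0.36, -0.051], which is not past 2-fold. Cryab was higher in endothelial cells (1.02) and lower in T cells (-2.06). Markers of cancer cells summed to 859 CPM in tumour and 173 in lymph node endothelial cells, and to 405 and 95.9 in T cells, and their part in these ratios was not tested.

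High cells were also found among cells that no comparison used. Of the cells over the mitochondrial limit, 0.562% in the tumour and 1.49% in the lymph node had at least 1% of UMIs from the inducible members, that is 13 and 5 cells. Among kept cells the shares were 0.514% and 1.00%, within the intervals of the former, which reach from 0.300 to 0.960 and from 0.486 to 3.45. Of the cells over the gene limit, 0 of 874 in the tumour and 0 of 971 in the lymph node were high. Of cells in clusters without a class name, 3.82% were high in tumour cluster 5.1 (led by Ccl5, Ctla4 and Sh2d2a) and 2.61% in tumour cluster 8.3 (Ptgs2 and Tnf among its leading genes).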

How the results depend on the processing

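One library per tissue limits every value here, since neither the spread between mice nor a second library was measured. The smallest classes were lymph node HECs (22 cells), tumour NK cells (34), lymph node neutrophils (39) and tumour endothelial cells (49), and their levels can rest on single cells. The depth of lymph node lymphocytes limits shares at 1000 UMIs, and cells under that depth were left out. No paired analysis was possible because each tissue is 1 pooled library and no result comes from a test.

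Members together here means Hspa1a, Hspa1b and Dnajb1. In tumour cancer cells their level was 196.0 CPM with a mitochondrial limit of 10%, 168.5 without the upper limit on detected genes, 219.7 as the mean of single-cell CPM and 173.3 without the 1% of cells with most UMIs, against 193.2 as reported. In lymph node cancer cells the last 3 gave 76.2, 100.4 and 77.2, against 87.8. In tumour endothelial cells the 4 gave 1547, 998.4, 1921 and 1103, against 1361. In lymph node endothelial cells it was 102.6 at 10%, 101.7 with doublets kept, 114.0 with the lists kept among the variable genes, 122.9 with each library clustered on its own, 113.2 at Leiden resolution 2.0, 110.0 as the mean and 54.7 without the 1%, against 76.3.

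With at least 5 UMIs in 1000 in place of 10, the share of high cells was 0.193% in tumour cancer cells, 2.83% in lymph node T cells and 1.59% in B cells. With at least 20 it was 0.337% in T cells, 0.348% in B cells and 0.0111% in tumour endothelial cells. With Hspa1a and Hspa1b alone it was 0.916% in T cells.

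At 4-fold, 0 members were lower in lymph node cancer cells, 0 higher in endothelial and T cells, 3 lower in neutrophils, and 1 higher and 0 lower in NK cells. In endothelial cells 1 was higher without the upper gene limit and 1 with separate clustering. In monocytes 2 were higher and 1 lower without the filter on low counts, 1 lower at the mitochondrial limit of 10% and 2 lower with doublets kept. In neutrophils 2 were lower with doublets kept and 2 without the high cells. In dendritic cells 2 were higher as the mean of single-cell CPM, 0 higher and 1 lower without high cells, and 3 higher without the top cell of each gene. In NK cells 1 was higher as the mean, 1 without high cells and 4 without the top cell. The 1 lower NK member became 0 at the mitochondrial limit of 10%, without the upper gene limit, with doublets kept, with lists kept, at resolution 2.0 and without the top cell, and 2 without the filter on low counts. Hspa1b in NK cells turned from -1.05 to 0.025 (log2) at the mitochondrial limit of 10%. The setting without the top cell was chosen after seeing the data. The causes were not tested.

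Over all alternatives, 109 log2 ratios lay outside the counting interval of the reported value, 432 lay within it, and 1 that was past 2-fold turned its sign. Ratios under 2-fold that turned their sign, such as Hspe1 in endothelial cells without the top cell, are counted by the interval. For shares it was 52 outside and 337 within, and for levels 591 outside and 1202 within. Counts of members past the fold differed by over 1.5 times in 28 cases and not in 118.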

Other observations

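Metallothioneins, which bind zinc and copper, were far lower in lymph node than in tumour T cells, Mt1 with a log2 ratio of -4.78 (1089 CPM in the tumour and 39.5 in the lymph node) and Mt2 with -5.44. In endothelial cells Mt1 had -3.61 and Mt2 -4.47, and in neutrophils -2.06 and -4.79. In cancer cells Mt1 had -0.45 and Mt2 -1.62. Markers of cancer cells summed to 405 CPM in tumour and 95.9 in lymph node T cells, to 859 and 173 in endothelial cells, and to 2265 and 113 in neutrophils. Their part in the metallothionein ratios was not tested. Of the metallothionein and oxidative stress list, 3 of 6 genes were past 2-fold lower in T cells (all genes 26.4%), 2 of 7 in endothelial cells (21.9%, so near the share of all genes) and 2 of 8 in cancer cells (9.74%), where 1 was higher. In neutrophils 2 of 7 were higher (all genes 10.7%) and 2 lower (26.7%), in dendritic cells 2 of 7 higher (10.2%) and 1 lower (10.6%), and in monocytes 2 of 7 higher (5.7%) and 1 lower (17.0%). Txnrd1, the cytosolic thioredoxin reductase, had -0.12 in cancer cells.

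Chaperones of the endoplasmic reticulum were past 2-fold higher in the lymph node for 9 of 14 genes in dendritic cells (all genes 10.2%) and 4 of 17 in endothelial cells (20.7%, so near the share of all genes), and past 2-fold lower for 4 of 17 in cancer cells (9.74%). Hspa5 (BiP, the HSP70 of that compartment) had 1.56 in dendritic cells, 1.06 in endothelial cells and -0.96 in cancer cells. Hsp90b1 had 1.09, 0.78 and 0.081 in the same order, and calreticulin (Calr) 1.33, -0.49 and -0.65. Among mitochondrial chaperones other than the members, 3 of 6 were past 2-fold higher in endothelial cells (all genes 20.7%), and 0 of 6 in cancer and in T cells. Hspa9, the mitochondrial HSP70, had 0.20 in endothelial and -0.48 in cancer cells, Grpel1 2.08 and 0.73, and the protease gene Clpp 1.78 and 0.25. No library was replicated, and none of these differences was tested.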
